A study of Mus musculus with 9 samples.

Results

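Non-methylated islands (NMIs) that lay between genes but close to a transcription start site (TSS) were described in C127 cells, a mouse mammary epithelial line. They were taken from the only NMI list analysed here, made from 1 BioCAP library of untreated C127 cells. BioCAP captures sonicated genomic DNA on the CXXC domain of KDM2B, a protein fold that binds CpG sites lacking methylation. An interval was chosen when it overlapped no gene span of the GENCODE M21 annotation and held no transcript 5′ end, but had an edge at most 10 kb from the nearest 5′ end. On chromosomes 1 to 19 and X, 815 of 13489 NMIs met this rule (6.04%, 95% interval 5.65 to 6.46%) and are called proximal intergenic NMIs. The remainder were 9887 NMIs at a TSS, 675 in exons, 1216 in introns and 896 in intergenic sequence over 10 kb from any TSS, called distal intergenic NMIs. The same series holds 8 other samples (3 ATAC, 3 of newly made RNA and 2 inputs), which were not analysed here. With 1 library, no score in the list and no read depth known, no test between groups could be made, and intervals on shares and densities cover counting error only.

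In mammals most CpG sites are methylated, and the exceptions are short CpG-rich stretches that usually sit on promoters. CXXC domains recognise such stretches, and CFP1, the subunit through which the study examined targeting of the SET1 histone H3 lysine 4 methyltransferase, carries one. Unmethylated DNA away from annotated promoters is also known at enhancers, at insulator sites bound by CTCF and at transfer RNA (tRNA) genes. RNA polymerase III transcribes tRNA genes from internal elements, among them the B box, and the GENCODE M21 gene set used here has no nuclear tRNA genes, so that a tRNA gene counted as intergenic under the rule.

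The sequences below show how far these intervals ranged in CpG content, each in mm10 on the forward strand with CpG sites in capitals. The first is the central stretch of the NMI upstream of Mir17hg, host of a cluster of growth-promoting microRNAs (chr14:115041303-115041602), and the second that of the widest proximal intergenic NMI, upstream of Kdm6b, a histone H3 lysine 27 demethylase (chr11:69418827-69419126). The others are whole narrow NMIs close to a TSS, upstream of Raet1e, a ligand of an activating natural killer cell receptor (chr10:22158404-22158558), and of Dgka, a diacylglycerol kinase (chr10:128744965-128745094).
Mir17hg: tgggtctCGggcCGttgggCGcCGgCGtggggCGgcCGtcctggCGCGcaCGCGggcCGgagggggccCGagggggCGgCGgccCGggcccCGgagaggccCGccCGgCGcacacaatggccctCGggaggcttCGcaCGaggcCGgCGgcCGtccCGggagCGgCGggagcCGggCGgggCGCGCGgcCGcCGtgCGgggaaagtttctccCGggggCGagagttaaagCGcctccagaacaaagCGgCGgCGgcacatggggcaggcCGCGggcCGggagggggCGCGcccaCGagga
Kdm6b: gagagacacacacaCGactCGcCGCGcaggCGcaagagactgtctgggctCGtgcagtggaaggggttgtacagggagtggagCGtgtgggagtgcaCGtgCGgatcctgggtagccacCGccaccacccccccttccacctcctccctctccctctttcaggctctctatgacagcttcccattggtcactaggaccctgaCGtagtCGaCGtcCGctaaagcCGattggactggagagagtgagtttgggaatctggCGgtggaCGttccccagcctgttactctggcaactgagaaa
Raet1e: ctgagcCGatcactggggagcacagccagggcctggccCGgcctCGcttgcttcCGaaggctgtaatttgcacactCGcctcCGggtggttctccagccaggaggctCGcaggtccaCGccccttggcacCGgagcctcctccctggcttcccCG
Dgka: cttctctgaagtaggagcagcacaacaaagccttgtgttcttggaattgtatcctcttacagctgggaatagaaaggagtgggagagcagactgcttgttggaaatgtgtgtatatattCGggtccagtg
The Mir17hg stretch held 49 CpG sites in 300 bp, the Kdm6b stretch 17 in 300 bp, the Raet1e NMI 10 in 155 bp and the Dgka NMI 1 in 130 bp.

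Proximal intergenic NMIs were narrow and of modest CpG content. Their median width was 391 bp (quartiles 237.5 and 643.5 bp, range 114 to 3282 bp), against 303 bp for distal intergenic NMIs and 1168 bp for NMIs at a TSS. Only 83 reached 1000 bp (10.2%, 95% interval 8.19 to 12.5%), against 6.14% of distal intergenic NMIs and 64.5% of NMIs at a TSS. The rule bears on this difference, since a wider interval more often reaches a gene or a TSS and then leaves the set. The median ratio of observed to expected CpG was 0.55, against 0.53 in distal intergenic NMIs and 0.76 at TSSs, and the median CpG density was 3.75 per 100 bp, against 3.36 and 6.85 per 100 bp. Median GC content was 53.2% in proximal intergenic NMIs, 51.9% in distal ones and 60.7% at TSSs. A CpG island predicted from sequence (at least 500 bp, GC content of at least 55%, ratio of at least 0.65) overlapped 91 of the 815 (11.2%, 95% interval 9.09 to 13.5%), against 5.02% of distal intergenic NMIs and 73.1% of NMIs at a TSS. In each of these measures the proximal intergenic NMIs stood between the other 2 classes and much closer to the distal ones. NMIs in exons also stood between distal intergenic NMIs and those at a TSS, with a median width of 408 bp and a median ratio of 0.57. Their median GC content, 56.3%, was about midway between the 2. Of the NMIs in exons, 12.7% reached 1000 bp and 17.2% overlapped a predicted island. Medians in introns were 278 bp and 0.49.

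The highest ratios of observed to expected CpG belonged to NMIs near Zfp184, a zinc finger gene (1.13), Gm27337 (1.05) and Gm27940 (1.03), both annotated as miscellaneous RNA. The lowest belonged to NMIs near the pseudogene Gm8396 (0.15), Dgka (0.16) and Gm42141 (0.20). The Gm8396 NMI (125 bp) held 0.80 CpG per 100 bp and the Dgka NMI 0.77 per 100 bp, and each held a single CpG.

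Most proximal intergenic NMIs lay upstream of the nearest gene, but so did most of the sequence in which they could lie. Of the 815, 569 were upstream of the nearest TSS (69.8%, 95% interval 66.5 to 73.0%) and 246 downstream. An intergenic interval lies downstream of its nearest TSS only beyond the 3′ end of a gene that is short or has a TSS near that end, and of the 369 Mb of intergenic sequence within 10 kb of a TSS, 65.6% was upstream. The density was 2.35 NMIs per Mb upstream (95% interval 2.16 to 2.55) and 1.94 per Mb downstream (1.70 to 2.20), against 0.92 per Mb of intergenic sequence over 10 kb from any TSS (0.86 to 0.98).

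**Figure D1:**
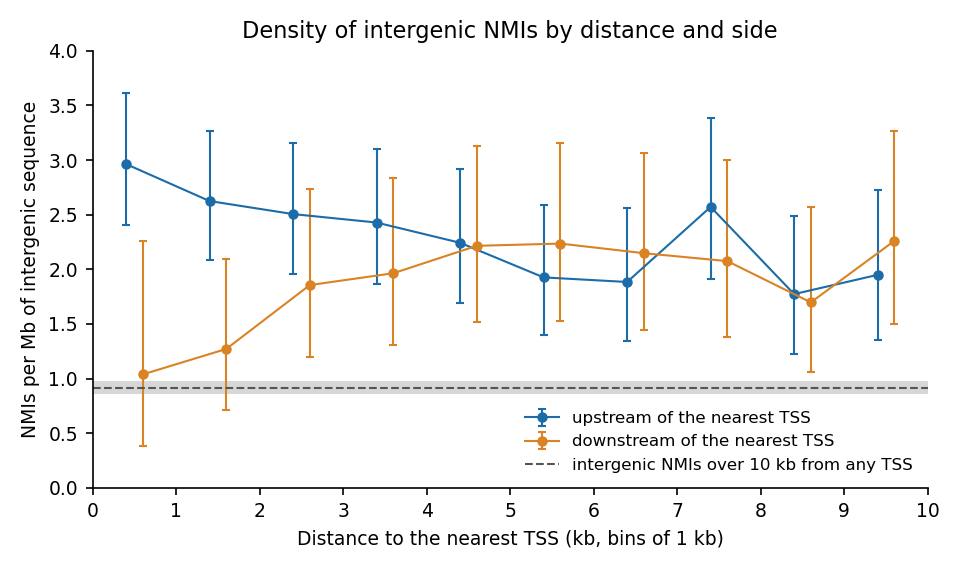
Density of intergenic NMIs per Mb of intergenic sequence (vertical axis) in bins of 1 kb by distance to the nearest TSS (horizontal axis), upstream and downstream, with exact Poisson 95% intervals as bars. The dashed line and band give the density over 10 kb from any TSS, 0.92 per Mb (0.86 to 0.98). The first upstream bin stood at 2.96 per Mb and the first downstream bin at 1.04 per Mb.

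The sides were furthest apart in density close to the TSS. Within 2 kb, 177 NMIs lay upstream (2.80 per Mb, 95% interval 2.40 to 3.24) and 21 downstream (1.19 per Mb, 0.74 to 1.83), and the 2 intervals did not overlap. From 2 to 5 kb the densities were 2.40 per Mb upstream (2.07 to 2.76) and 2.02 per Mb downstream (1.61 to 2.49). From 5 to 10 kb they were 2.02 per Mb upstream (1.75 to 2.32) and 2.09 per Mb downstream (1.75 to 2.46), where no difference between sides was detectable at these counts. The genes on each side differed too, as 62.4% of upstream NMIs but 32.1% of downstream NMIs had a protein-coding gene as the nearest, and the part of this difference in the densities was not tested. Where the nearest gene was protein-coding with an NMI of its own, the density was 4.48 per Mb upstream (3.87 to 5.16) and 4.33 per Mb downstream (3.08 to 5.92). Where it was protein-coding without one, the density was 2.46 per Mb upstream (2.09 to 2.87) and 1.89 per Mb downstream (1.35 to 2.57). Beside long non-coding RNA genes without an NMI the order of the sides was turned round, with 2.38 per Mb upstream (1.91 to 2.94) and 4.05 per Mb downstream (2.98 to 5.39), while beside those with an NMI it was 14.8 per Mb upstream (9.26 to 22.4) and 4.76 per Mb downstream (2.06 to 9.39). The direction of the 2 genes flanking the gap made little difference. Gaps between divergent genes held 27.5% of proximal intergenic NMIs and 27.0% of the sequence, tandem gaps 55.3% and 54.6%, and convergent gaps 17.1% and 18.4%.

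The median distance to the TSS was 4217 bp (quartiles 2091.5 and 6838.5 bp). Among the closest, NMIs ended 3 bp from AC132404.1, 4 bp from Gm38554, both long non-coding RNAs, 10 bp from Mc3r, a melanocortin receptor, and 11 bp from Raet1e. These 4 lay upstream, and the nearest gene had no NMI at a TSS in any of them. At the other end, the last NMIs inside the limit were near Gm37230 (9973 bp), Gm19596 (9954 bp), 2010001A14Rik (9941 bp), Mir7k (9927 bp) and Poc1b (9919 bp). The first ones beyond it were near 4833405L11Rik (10053 bp), Gm20745 (10085 bp), Gm25375 (10098 bp), Gm34256 (10119 bp) and Txn2 (10130 bp). Widths inside (159 to 681 bp) and outside (143 to 464 bp) overlapped.

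The next comparison was whether the nearest gene had an NMI at its own TSS. This was so for 273 of 815 (33.5%, 95% interval 30.3 to 36.9%), set against 22.7% of all GENCODE genes and 28.8% of distal intergenic NMIs (25.8 to 31.9%). The 815 NMIs had 765 distinct nearest genes, of which 251 (32.8%) had an NMI. By sequence rather than by gene, 15.2% of the intergenic bases within 10 kb of a TSS had a nearest gene with an NMI. These shares mix gene types, so the types were taken apart.

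Protein-coding genes were nearest to 434 of the 815 NMIs (53.3%), while they were nearest to 37.7% of the available sequence. Of these 434, 232 had a gene with an NMI at a TSS (53.5%, 95% interval 48.6 to 58.2%), against 46.9% of all protein-coding genes and 37.4% of the sequence whose nearest gene was protein-coding. Long non-coding RNA genes were nearest to 164 NMIs, and the gene had an NMI for 30 of them (18.3%, 12.7 to 25.1%), against 13.8% of all such genes and 6.18% of the sequence. Pseudogenes were nearest to 114 NMIs and 2 had an NMI (1.75%, 0.213 to 6.19%), against 0.574% of all pseudogenes. Small RNA genes were nearest to 73 NMIs and 4 had an NMI (5.48%, 1.51 to 13.4%), against 3.63% of all small RNA genes. The last 30 NMIs were nearest to loci of GENCODE's provisional TEC class, of which 5 had an NMI (16.7%, 5.64 to 34.7%), against 5.58% of all TEC loci. Among distal intergenic NMIs nearest to a protein-coding gene, 235 of 394 genes had an NMI (59.6%, 54.6 to 64.5%), so that within protein-coding genes the share was no higher for proximal than for distal intergenic NMIs. Pseudogenes made up 35.0% of the available sequence by nearest TSS but only 14.0% of the NMIs. Beside those without an NMI the density was 0.74 NMIs per Mb upstream (0.55 to 0.97) and 1.02 per Mb downstream (0.78 to 1.31).

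The share of genes with an NMI is given by distance, although close to the TSS it is limited by the spacing of the intervals. Upstream, 2 of 58 nearest genes had one when the proximal intergenic NMI lay within 500 bp (3.45%, 95% interval 0.420 to 11.9%), 6 of 39 from 500 to 1000 bp (15.4%, 5.86 to 30.5%), 35 of 80 from 1 to 2 kb (43.8%, 32.7 to 55.3%), 89 of 190 from 2 to 5 kb (46.8%, 39.6 to 54.2%) and 87 of 202 from 5 to 10 kb (43.1%, 36.1 to 50.2%). Adjacent NMIs in the list were never less than 464 bp apart, so that no NMI could cover the nearest TSS where the intergenic one lay closer than that, and the widths of NMIs at a TSS (median 1168 bp) also left less room from 500 to 1000 bp. Of the 2 genes with an NMI in that closest bin, 1 was Rbm38, an RNA-binding protein gene, whose NMI at a TSS lay 1279 bp from the upstream one. Among protein-coding genes alone the shares were 6.67% within 500 bp (2 of 30), 6 of 20 from 500 to 1000 bp and 53.7%, 63.1% and 61.2% in the 3 farther bins. Downstream, 27 of 85 nearest genes had an NMI from 2 to 5 kb (31.8%, 22.1 to 42.8%) and 24 of 140 from 5 to 10 kb (17.1%, 11.3 to 24.4%), with too few NMIs closer in to compare. Among protein-coding genes alone these downstream shares were 18 of 33 (54.5%, 36.4 to 71.9%) and 18 of 40 (45.0%, 29.3 to 61.5%).

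**Figure D2:**
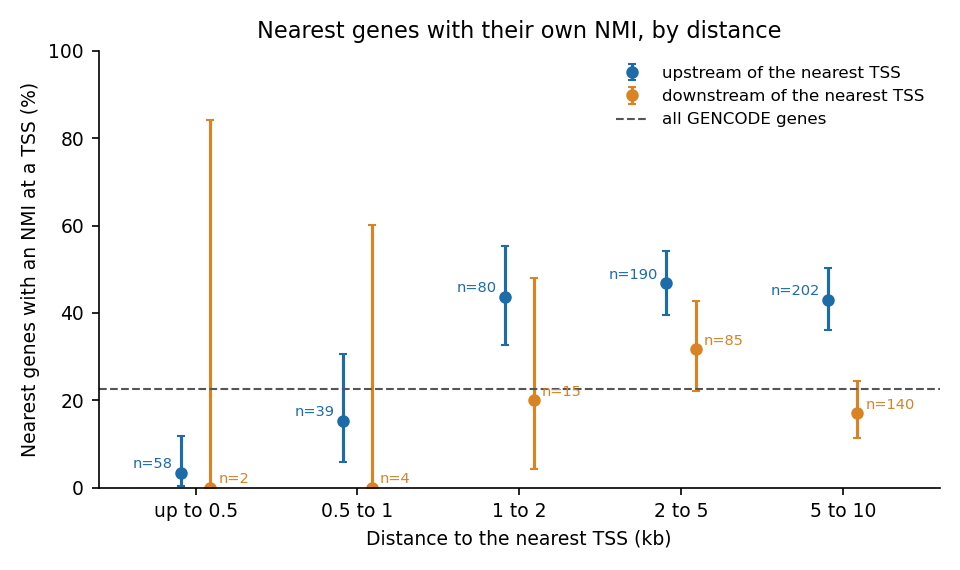
Percent of nearest genes with an NMI at one of their own TSSs (vertical axis) by distance of the proximal intergenic NMI to the nearest TSS in kb (horizontal axis), upstream and downstream, with exact 95% binomial intervals as bars and the number of NMIs beside each point. The dashed line is the share over all GENCODE genes, 22.7%. Upstream, the share was 3.45% within 500 bp and 43.1 to 46.8% in the 3 bins beyond 1 kb, and the smallest spacing of NMIs in the list, 464 bp, limits the closest bin.

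The NMIs just short of a TSS were then set beside the promoters they stopped at. Of the 41 that ended within 250 bp upstream of a TSS, 10 overlapped a predicted CpG island (24.4%, 95% interval 12.4 to 40.3%), against 9.41% of those from 5 to 10 kb upstream. A transcript 5′ end of the RefSeq annotation lay in 8 of the 41 (19.5%, 8.82 to 34.9%). That share was 6.32% from 2 to 5 kb and 2.48% from 5 to 10 kb upstream. From 500 to 1000 bp upstream both shares were 20.5% (8 of 39), so neither was particular to the closest NMIs. Cpeb4, a regulator of translation and cytoplasmic polyadenylation, lay somewhat farther out. Its NMI (chr11:31870124-31871667, 1544 bp) ended 544 bp upstream of the nearest GENCODE TSS, held a 5′ end of a curated RefSeq transcript and was 198006 bp from the next NMI. The Dgka NMI, 110 bp upstream, also held a curated RefSeq 5′ end. In all, 56 of the 815 held a RefSeq 5′ end (6.87%, 5.23 to 8.83%), only 7 of them from a curated transcript, against 3.91% of distal intergenic NMIs. A total of 186 (22.8%) overlapped a RefSeq gene other than a tRNA gene, against 20.0% of distal intergenic NMIs. What counts as intergenic thus depended on the annotation in both classes.

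Beside protein-coding genes without an NMI, the intergenic NMI was often richer in CpG than the promoter itself. For these 202 NMIs the median density was 3.92 CpG per 100 bp, while the 500 bp centred on their nearest TSS had a median of 2.60 per 100 bp, and the NMI was the denser in 135 (66.8%, 95% interval 59.9 to 73.3%). Within 1000 bp upstream it was the denser in 23 of 42 (54.8%, 38.7 to 70.2%). An NMI that ended within 250 bp of the TSS lay partly inside the window it was compared with. Beside the 232 NMIs whose protein-coding gene had an NMI, the order was the other way round. These NMIs had a median of 3.90 CpG per 100 bp and their nearest TSS windows 7.0 per 100 bp, and the intergenic NMI was the denser in 60 (25.9%, 20.4 to 32%). Every intergenic interval here was called by CpG capture and the promoters were split by such a call, so these differences follow in part from the selection. Over all protein-coding genes the window at the outermost TSS had a median of 7.8 CpG per 100 bp with an NMI and 1.4 per 100 bp without. The 273 NMIs near a gene with an NMI were wider, with a median of 461 bp against 363 bp for the 542 near a gene without one, and shares that overlapped a predicted island were 11.0% and 11.3%.

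Where the gene had an NMI, the intergenic one was usually the smaller neighbour. It was narrower than the NMI at the gene's TSS in 247 of 273 cases (90.5%, 95% interval 86.4 to 93.7%), and the NMI at the TSS had a median width of 1248 bp. The 2 classes differ in width whatever the gene, with medians of 391 bp for proximal intergenic NMIs and 1168 bp at TSSs. The share for NMIs of unrelated genes was not computed, so 90.5% is no sign of a relation between neighbours. The gap between them had a median of 4146 bp and was at most 1000 bp in 31 cases (11.4%). Hes1, a repressor downstream of Notch, had an NMI of 4795 bp at its TSS and 2 further NMIs of 932 and 1145 bp downstream (chr16:30068164-30069095 and chr16:30069951-30071095), the first 580 bp from the large one. Gadd45b, a stress response gene, had an NMI of 5328 bp at its TSS and NMIs of 436 and 943 bp at 5638 and 8392 bp downstream. Cirbp, a cold-inducible RNA-binding protein, was the opposite case, with an NMI of 2930 bp that ended 4523 bp upstream (chr10:80158533-80161462) and one of 1928 bp at its TSS. Hes1 and Gadd45b were 2 of 42 genes with 2 proximal intergenic NMIs, and 4 genes had 3 (Gm13056, Gm16170, Trim27 and Gm49436). The last gene given by the naming rule, 6720469O03Rik, had 2 as many others did, and Hes1 and Gadd45b were picked as examples with their values known.

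Transfer RNA genes were frequent among the widest proximal intergenic NMIs, a comparison taken up only once the intervals had been looked at. Of the 815, 39 held at least 1 tRNA gene of the RefSeq annotation (4.79%, 95% interval 3.42 to 6.48%), against 1.79% of distal intergenic NMIs and 0.425% of NMIs at a TSS. Together they held 71 of the 403 tRNA genes on these chromosomes, and 40.9% of all 403 overlapped an NMI of some class. Of the tRNA genes in any NMI, those in proximal intergenic NMIs outnumbered the 54 in NMIs at a TSS and the 24 in distal intergenic NMIs. How the 403 tRNA genes divide between proximal, distal and genic sequence was not counted. The part of their positions in these counts and shares was therefore not tested. The 39 had a median width of 1268 bp (quartiles 732.5 and 1844 bp), close to the 1168 bp of NMIs at a TSS, against 379.5 bp for the 776 without a tRNA gene. They made up 5 of the 10 widest proximal intergenic NMIs, 16 of the 30 widest and 25 of the 100 widest.

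**Figure D3:**
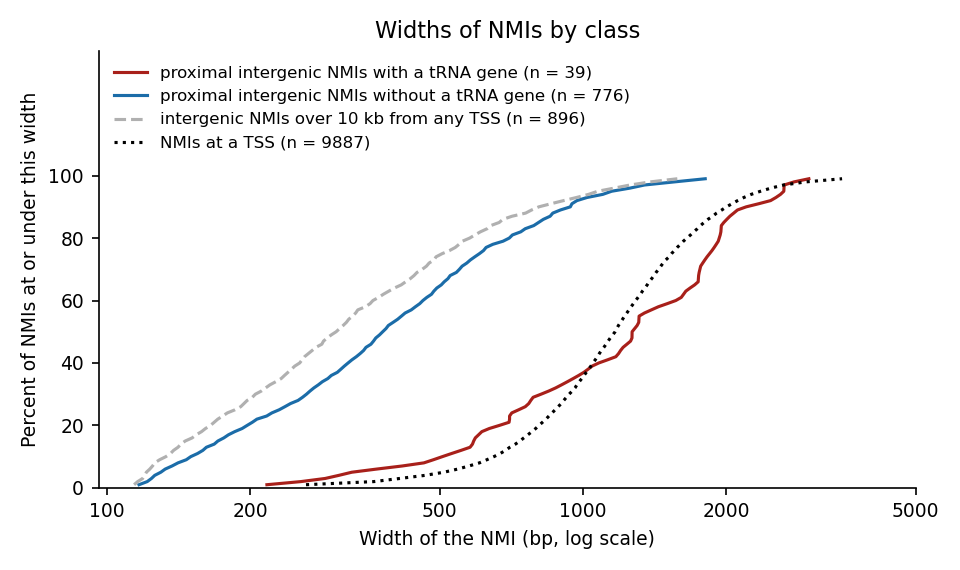
Cumulative distribution of NMI width in bp (horizontal axis, log scale) as the percent of NMIs at or under each width (vertical axis), for proximal intergenic NMIs with and without a tRNA gene, distal intergenic NMIs and NMIs at a TSS. The curve with a tRNA gene (median 1268 bp) runs beside that of NMIs at a TSS (1168 bp), and the curve without one (379.5 bp) beside that of distal intergenic NMIs (303 bp).

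NMIs with a tRNA gene resembled those at a TSS in ratio of observed to expected CpG, but not in GC content. The median ratio was 0.78 with a tRNA gene, 0.54 in proximal intergenic NMIs without one and 0.76 at TSSs. Median GC content was 47.8%, 53.5% and 60.7% in the same order. A predicted CpG island overlapped 9 of 39 with a tRNA gene (23.1%, 95% interval 11.1 to 39.3%) and 82 of 776 without (10.6%, 8.49 to 12.9%). Median CpG density was 4.38 per 100 bp with a tRNA gene, 3.72 per 100 bp without and 6.85 per 100 bp at TSSs. The tRNA genes were 71 to 107 bp long with a median of 6 CpG sites each. They covered little of the wide intervals but more of narrow ones, such as 72 bp of the 332 bp near Zfp184.

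**Figure D4:**
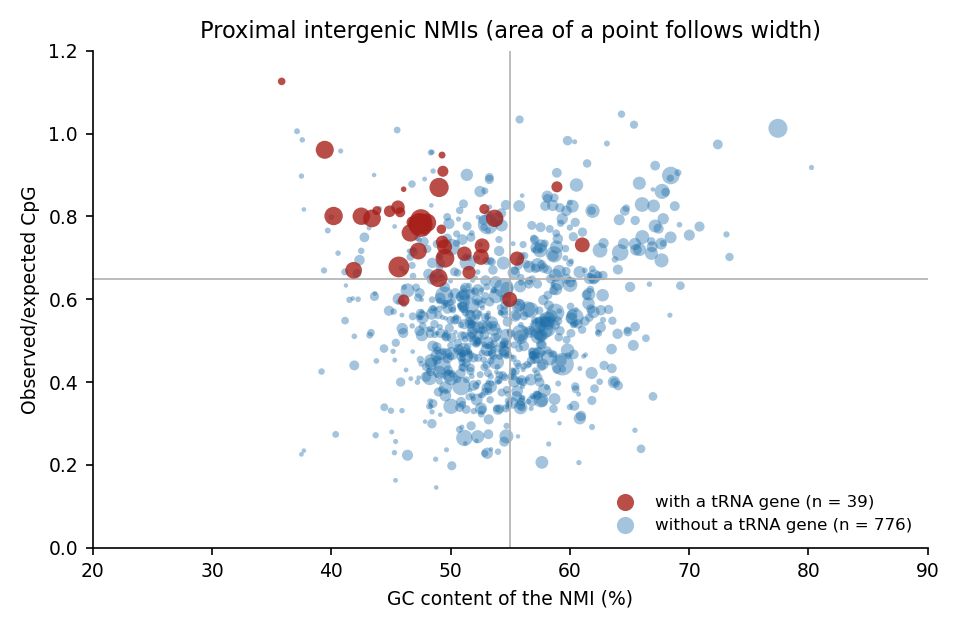
Ratio of observed to expected CpG (vertical axis) against GC content in percent (horizontal axis) for the 39 proximal intergenic NMIs with a tRNA gene and the 776 without, 1 point each with the area following width. Grey lines mark a GC content of 55% and a ratio of 0.65. The NMIs with a tRNA gene gather at a high ratio (median 0.78) and low GC content (median 47.8%), and the wide Mir17hg NMI lies at 77.4% and 1.01.

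The tRNA genes fell in clusters, with 1 to 4 per NMI, and 10 of the 39 NMIs lay on chromosome 11 and 10 on chromosome 13. Of all 815 proximal intergenic NMIs, 91 lay on chromosome 11 and 37 on chromosome 13. The spread of the 403 tRNA genes over the chromosomes was not counted. The NMI near Shf, which encodes a signalling adaptor (chr2:122375054-122378240, 3187 bp, 5892 bp upstream), held 3 genes for histidine tRNA. The NMI near Aurkb, the mitotic kinase Aurora B (chr11:69039861-69041989, 2129 bp, 3658 bp upstream), held 4 genes for proline, aspartate, glycine and tryptophan tRNA. They are shown 5′ to 3′ on the strand of the gene, from the RefSeq assembly GRCm38.p6, to place the B box, taken as GTTCNANTC, in capitals.
n-THgtg4: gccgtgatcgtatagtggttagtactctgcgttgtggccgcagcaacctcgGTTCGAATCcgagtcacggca
n-TPcgg3: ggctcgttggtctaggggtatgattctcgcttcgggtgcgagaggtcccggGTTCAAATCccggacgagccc
n-TDgtc9: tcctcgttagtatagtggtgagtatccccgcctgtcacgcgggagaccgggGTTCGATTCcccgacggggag
n-TGtcc6: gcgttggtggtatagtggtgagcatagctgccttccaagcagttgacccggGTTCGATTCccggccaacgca
n-TWcca7: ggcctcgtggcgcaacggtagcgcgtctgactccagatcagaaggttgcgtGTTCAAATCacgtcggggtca
They lie at chr2:122375494-122375565, chr11:69040385-69040456, chr11:69040984-69041055, chr11:69041278-69041349 and chr11:69041826-69041897. The other 2 histidine tRNA genes of the Shf NMI, n-THgtg3 and n-THgtg5, have the same 72 bases as n-THgtg4. Over the 71 tRNA genes there were 45 distinct sequences, and 48 held the B box as written. Because the authors discarded reads without a unique position, reads wholly inside identical copies could not count, and the effect on these intervals was not tested.

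Other wide NMIs with tRNA genes lay near Olfr1421-ps1, an olfactory receptor pseudogene (2646 bp, 4 tRNA genes, 7597 bp upstream), Olfr750, an olfactory receptor (2641 bp, 3 tRNA genes, 5428 bp downstream), and Dhx37, a ribosome biogenesis helicase (2492 bp, 3 tRNA genes, 9255 bp downstream). Of 1466 protein-coding olfactory and vomeronasal receptor genes, which are silent in most tissues, 1 had an NMI at a TSS and 3 were nearest to a proximal intergenic NMI, at 0.21 NMIs per Mb against 3.21 per Mb for all protein-coding genes. For the gene lists, protein-coding means the GENCODE biotype of that name (21755 genes), whereas the shares by gene type above also count immunoglobulin and T cell receptor segments (22245 genes). The NMI near Rnase4, a secreted ribonuclease (2029 bp, 285 bp upstream), held 2 tRNA genes and that near Plxdc1, an endothelial membrane protein (1433 bp, 1068 bp upstream), also held 2. In NMIs downstream of the nearest TSS, 4 of the 5 widest held tRNA genes, namely those near Olfr750, Dhx37, the small nuclear RNA Gm26110 (1873 bp) and Hist1h2bl, a core histone gene (1750 bp). The fifth lay near the long non-coding RNA Gm44734 (2364 bp) and held none.

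Of the 5 NMIs among the 10 widest that held no tRNA gene, 4 were upstream. The widest of all lay 3661 bp upstream of Kdm6b (chr11:69417336-69420617, 3282 bp, 0.53 observed to expected CpG), held a predicted RefSeq 5′ end and was followed by a second NMI of 397 bp nearer the gene. Vav1, a guanine nucleotide exchange factor of blood cells, had an NMI of 2284 bp at 1981 bp upstream (chr17:57274836-57277119). The Mir17hg NMI (chr14:115040413-115042491, 2079 bp, 388 bp upstream) was the most CpG-dense of the 815, with 15.0 CpG per 100 bp and a ratio of 1.01. The next NMI was 1882757 bp away. Kdm6b, Vav1 and Mir17hg had no NMI at a TSS of the GENCODE annotation.

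Other wide NMIs beside protein-coding genes without an NMI lay near Ndufa4l2, a mitochondrial protein gene induced in hypoxia (1890 bp, 1570 bp upstream), Tex44, a testis-expressed gene (1680 bp, 7678 bp downstream), Slc6a4, the serotonin transporter (1658 bp, 45 bp upstream), and 1520401A03Rik (1314 bp, 5770 bp downstream). The last had a ratio of 0.86 and a GC content of 67.7%, the others ratios of 0.52 to 0.57. The Slc6a4 NMI overlapped 7 functional elements annotated in RefSeq, among them promoters.

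Among the gene lists examined, developmental transcription factors, listed by the start of the gene name, had the highest density of proximal intergenic NMIs. The next densities rested on very few NMIs and had no counting intervals. They were 10.2 per Mb for immediate-early genes (2 NMIs), 6.33 per Mb for epithelial genes (1) and 6.10 per Mb for mesenchymal genes (1). Of 236 such genes, 16 were nearest to 19 proximal intergenic NMIs, or 2.33% of NMIs against 0.364% of the available sequence, and the density was 14.1 NMIs per Mb against 3.21 per Mb for all protein-coding genes. For 9 of the 19 the gene had an NMI at a TSS, while 37.3% of the list did. Examples with an NMI at the gene are Sox4, a regulator of progenitor cells (961 bp, 3994 bp upstream), Pax3, of neural crest and muscle (577 bp, 6558 bp upstream), and Irx2, an Iroquois homeobox gene (946 bp, 6598 bp downstream). Examples without are Foxa2, an endoderm factor (832 bp, 1336 bp upstream), Nkx2-5, a cardiac factor (350 bp, 5149 bp upstream), and Hes7, a Notch target of the segmentation clock. Hes7 had 2 NMIs (1312 and 280 bp, 1382 and 9310 bp upstream) and each held a tRNA gene. Within the Hox clusters, NMIs lay upstream of Hoxb9 (292 bp), Hoxc12 (431 bp) and Hoxc10 (330 bp), and of these genes Hoxb9 had an NMI at a TSS.

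Counts in the other lists were small. Solute carrier genes (Slc) were nearest to 11 NMIs (4.54 per Mb) and Zfp zinc finger genes to 10 (4.54 per Mb), and the gene had an NMI at a TSS for 3 of the 11 NMIs near Slc genes and 7 of the 10 near Zfp genes, against 43.9% of all genes of the Slc list and 64.2% of the Zfp list. Signalling genes were nearest to 2, at Wnt2b, a Wnt ligand (753 bp), and Dll4, a Notch ligand (605 bp), and neither gene had an NMI, against 54.0% of the list with one. Immediate-early genes were nearest to 2, at Ier2 (507 bp, 5742 bp downstream) and Egr3 (359 bp, 9133 bp upstream), and both genes had one, as 91.3% of that list did. Of the epithelial genes, 3 of 21 had an NMI at a TSS (14.3%), against 47.9% of all protein-coding genes. The only proximal intergenic NMI of that list lay 2671 bp upstream of Cldn7, a claudin of tight junctions, whose TSSs had none (512 bp, ratio 0.30). Of the mesenchymal genes, 13 of 20 had an NMI at a TSS, and the list's only proximal intergenic NMI lay 7062 bp upstream of Col1a1, the main chain of type I collagen (429 bp, ratio 0.24). The ribosomal protein genes had 2, at Mrpl45 (1941 bp, 4079 bp upstream) and a second gene, and the histone genes 1, at Hist1h2bl.

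Sequence motifs in the central 300 bp of each NMI stood at shares closer to those of distal intergenic NMIs than to those of NMIs at a TSS. The window reaches past the ends of the 286 NMIs narrower than 300 bp, and motifs were searched on both strands. The GC box GGGCGG, bound by Sp and Klf factors, was found in 31.4% (95% interval 28.2 to 34.7%), against 24.2% of distal intergenic NMIs (21.4 to 27.2%, below the proximal interval) and 67.1% of NMIs at a TSS. The ETS motif CCGGAAG was found in 5.64%, 4.24% and 13.9% of these classes, the NRF1 motif GCATGCGC in 1.96%, 1.34% and 2.94%, and the CRE TGACGTCA in 0.736%, 0.670% and 1.76%. Shares were lowest at TSSs for the AP-1 motif TGANTCA, found in 14.8% (12.5 to 17.5%) against 17.6% and 3.25%, for the CTCF core in 12.6% (10.4 to 15.1%) against 12.2% and 2.65%, and for TATAAA in 8.83% (6.98 to 11.0%) against 7.48% and 2.52%. Base composition differed between the classes, as given above, and its part in these shares was not tested. The CTCF and AP-1 motifs occurred together in 7 NMIs of the 103 and 121 that had them. NMIs with the CTCF core had a median width of 320 bp and those with the AP-1 motif 307 bp. The B box as written was found in 4.05% of proximal intergenic NMIs and in 2.58% of those without a tRNA gene, against 2.95% and 1.39% of distal intergenic NMIs and NMIs at a TSS without one.

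**Figure D5:**
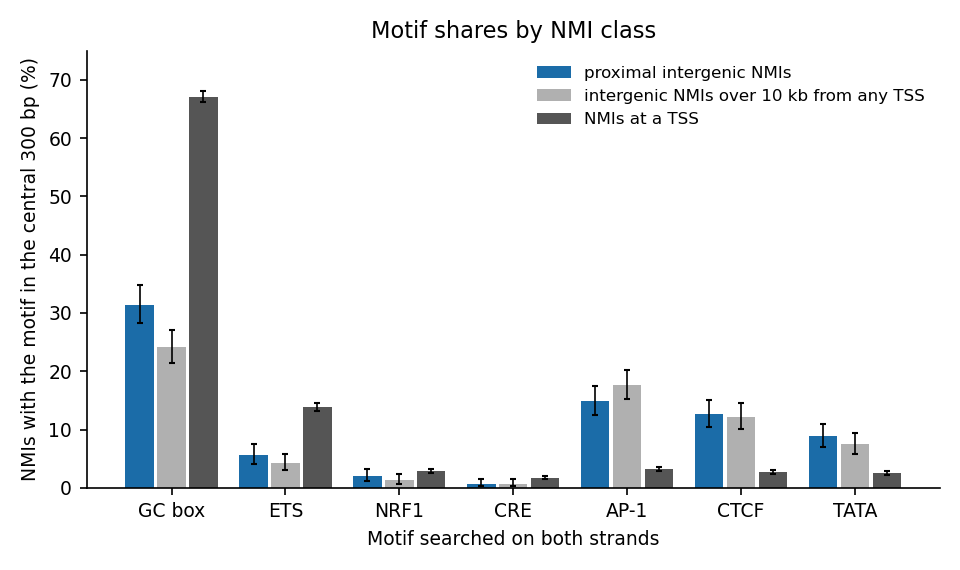
Percent of NMIs with each motif in the central 300 bp (vertical axis) for 815 proximal intergenic NMIs, 896 distal intergenic NMIs and 9887 NMIs at a TSS, with exact 95% binomial intervals as bars. The GC box was found in 31.4% of proximal intergenic NMIs and 67.1% of NMIs at a TSS, the AP-1 motif in 14.8% and 3.25%, and the CTCF core in 12.6% and 2.65%.

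The narrowest proximal intergenic NMIs with these motifs beside a protein-coding gene are shown with the motif in capitals, and their few CpG sites follow from the choice of narrow intervals. Over all 103 NMIs with the CTCF core the median ratio of observed to expected CpG was 0.57, and over the 121 with the AP-1 motif 0.49, against 0.55 in the whole set. The first sequence lies near Zfp946, a zinc finger gene (chr17:22417632-22417766, 135 bp, 3 CpG sites, CTCF core), and the second near Tcp11l2 (chr10:84571223-84571350, 128 bp, 5 CpG sites, AP-1 motif inside the interval).
Zfp946: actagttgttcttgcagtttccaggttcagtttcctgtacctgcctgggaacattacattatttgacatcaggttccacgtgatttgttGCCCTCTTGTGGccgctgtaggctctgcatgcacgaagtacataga
Tcp11l2: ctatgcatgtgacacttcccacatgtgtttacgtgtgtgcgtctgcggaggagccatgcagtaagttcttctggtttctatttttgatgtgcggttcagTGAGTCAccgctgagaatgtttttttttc
A match is a description of the letters and not of binding by a factor.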

How the data were processed

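The authors deposited the NMIs as a chromosome, start and end each (other values: positions only, with no score). Per the study's methods, Bowtie2 placed the reads on mm10, reads with several positions and duplicates (SAMtools) were dropped, and MACS2 called the peaks. The sources used here give neither versions nor whether the input served as the control. A list of called peaks leaves out weakly captured DNA, so a gene without an NMI was not measured as methylated. Of 13491 NMIs, 2 on scaffolds were left out. Starts are counted from 1. Genes came from GENCODE M21 (53843 genes, 139486 transcripts), with overlap by at least 1 bp, and an NMI at a gene meant overlap with any of its TSSs. Sequence and tRNA genes came from RefSeq GRCm38.p6, which shares mm10 coordinates. Medians, counts and shares with exact (Clopper-Pearson) 95% intervals, and densities with exact Poisson intervals, were computed in Python 3.11.15 (numpy 2.4.6, pandas 2.3.3, scipy 1.17.1). NMIs and genes are not replicates, and no p-value was computed. Placing of intervals was checked by brute force on simulated data. The members of the set, the gene lists, the motifs and the naming rule were chosen with earlier results of these data known. The rule named the 10 widest NMIs, the 5 closest to a TSS, the 5 on each side of the limit, the 10 widest beside protein-coding genes without an NMI, the 5 widest downstream, the 5 genes with the most, the 3 highest and 3 lowest ratios and up to 4 per list. Others were picked with their values known, and a few genes the rule gives are not reported here. Alternatives were other distance limits, gene sets, TSS definitions, island criteria and widths.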

Additional observations from a re-analysis of the deposited data

How the results depend on the processing

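Of 57 alternatives over 6 values, 31 left the value within its counting interval (a count within 1.5 times) and 26 moved it. With a limit of 2 kb the set held 198 NMIs, 89.4% were upstream, 23.2% had a nearest gene with an NMI and 18.2% overlapped a predicted island. With 5 kb it held 473 NMIs, 77.6% upstream, and with 20 kb 65.4% were upstream. With protein-coding genes as the only genes, 78.4% were upstream, 56.8% had a gene with an NMI, the median width was 445 bp, the median ratio of observed to expected CpG 0.58 and the island share 16.2%. Without pseudogenes and small RNA genes, 76.0% were upstream and 43.7% had a gene with an NMI. Without NMIs at or under the lower quartile of width of the whole list (572.5 bp), 248 remained in the set, with 39.9%, a median width of 862.5 bp, a ratio of 0.60 and an island share of 23.4%. The share with an NMI at the gene was 57.8% for the nearest protein-coding gene, 29.2% for the outermost TSS alone, and 40.1% and 47.5% where an NMI within 250 or 1000 bp of a TSS counted. These last 2 let the intergenic NMI itself count, and without it they were 34.8% and 35.5% (added after the data were seen). Without NMIs in a RefSeq gene or with a RefSeq 5′ end, also added later, the median width was 368 bp and the island share 8.53%. Looser island criteria (200 bp, 50% GC, ratio 0.6) gave 40.7%. No paired analysis was possible because there was 1 library. A single list of positions, with no reads, limits every value to presence or absence of a call.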

Other observations

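RefSeq functional elements described from experiments overlapped 13 of the 815 proximal intergenic NMIs (1.6%, exact 95% interval 0.852 to 2.71%), against 1.34% of distal intergenic NMIs and 0.384% of NMIs at a TSS. Enhancers were annotated at the NMIs near Pax3 (577 bp, 6558 bp upstream) and Nkx2-5 (350 bp, 5149 bp upstream), among others. Near Pax4, a pancreatic islet factor, the NMI (802 bp, 1615 bp upstream) overlapped 5 enhancer or promoter elements. Of the genes just named, Pax3 had an NMI at a TSS and Nkx2-5 and Pax4 had none.

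Chromosomes differed widely in the density of proximal intergenic NMIs, which was 5.41 per Mb of intergenic sequence within 10 kb of a TSS on chromosome 15 (70 NMIs), 5.14 per Mb on chromosome 11 (91) and 4.31 per Mb on chromosome 17 (63), and 0.15 per Mb on chromosome X (4). As a share of all NMIs of the chromosome they were 9.68% on chromosome 15, 7.40% on chromosome 11, 8.56% on chromosome 17 and 1.45% of 276 on chromosome X. The number of copies of each chromosome in this line was not analysed here.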
